A study of Homo sapiens with 12 samples.

Results

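Immediate early and MAPK feedback genes were followed with 9 probes on 12 Illumina HumanHT-12 v4 arrays of WM35, a cell line from a human primary melanoma. The 9 probes were chosen by their probe identifiers, with earlier results of these data known. They measured 8 genes: EGR1, FOS, FOSB, JUN, DUSP1, DUSP6 (2 probes), IER3 and MYC. They were 9 of 38223 probes in the processed table, and all 9 were among the 16216 probes tested. Cells had been plated overnight and then exposed to ciclopirox, a hydroxypyridone antifungal that chelates iron, to crizotinib, an inhibitor of the MET, ALK and ROS1 receptor kinases, or to the DMSO vehicle. Each drug was used at the concentration that gave 75% inhibition in an earlier assay at 72 h, and the concentrations themselves are not given in the labels. The groups were vehicle control (n = 2), ciclopirox for 8 h (n = 3), ciclopirox for 24 h (n = 2), crizotinib for 8 h (n = 3) and crizotinib for 24 h (n = 2). Control titles carry no time, so drug and time in culture cannot be told apart in any comparison with control, and those comparisons share the same 2 control arrays. The labels do not say that replicates came from separate cultures, so a p-value here reflects array-to-array spread of possibly technical origin only.

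Immediate early genes are transcribed within minutes of a stimulus without new protein synthesis. In the MAPK cascade, RAS and RAF activate MEK and ERK, and ERK phosphorylates ternary complex factors that sit with SRF on CArG boxes of promoters such as those of EGR1 and FOS. The products EGR1, FOS, FOSB, JUN and MYC are transcription factors, whereas DUSP1 and DUSP6 are phosphatases that remove the activating phosphates of MAP kinases and so close a feedback loop. ERK signalling is a main growth pathway of melanoma cells, and stress signals through JNK and p38 also switch on several of the same genes.

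Before any result, the identity of the arrays needs stating, because the 2 deposited tables disagreed on it. The processed table is keyed by sample record, and the non-normalized table by chip position, which each sample's description names. Over 12599 probes detected on all arrays, with each probe centred, 10 of the 12 non-normalized columns correlated best with another sample's processed column (r of the best match 0.94 to 0.976), and 2, both controls, with their own. Arrays with one title correlated at a mean of 0.467 in the processed table and 0.198 by chip position, against -0.161 and -0.119 for arrays of different titles. The nearest array carried the same title for 12 of 12 arrays in the processed table and for 6 of 12 by chip position. Values below come from the processed table. This choice departs from the analysis first planned, which was based on the non-normalized table, and was made after the tables had been compared and the members' values seen in both. With the chip position labels, limma called 0 of the 9 probes at an adjusted p below 0.05 in any of the 9 comparisons (at an unadjusted p below 0.05, between 0 and 3 probes per comparison), so every call below depends on the sample records of the processed table being right, which was not tested.

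**Figure D1:**
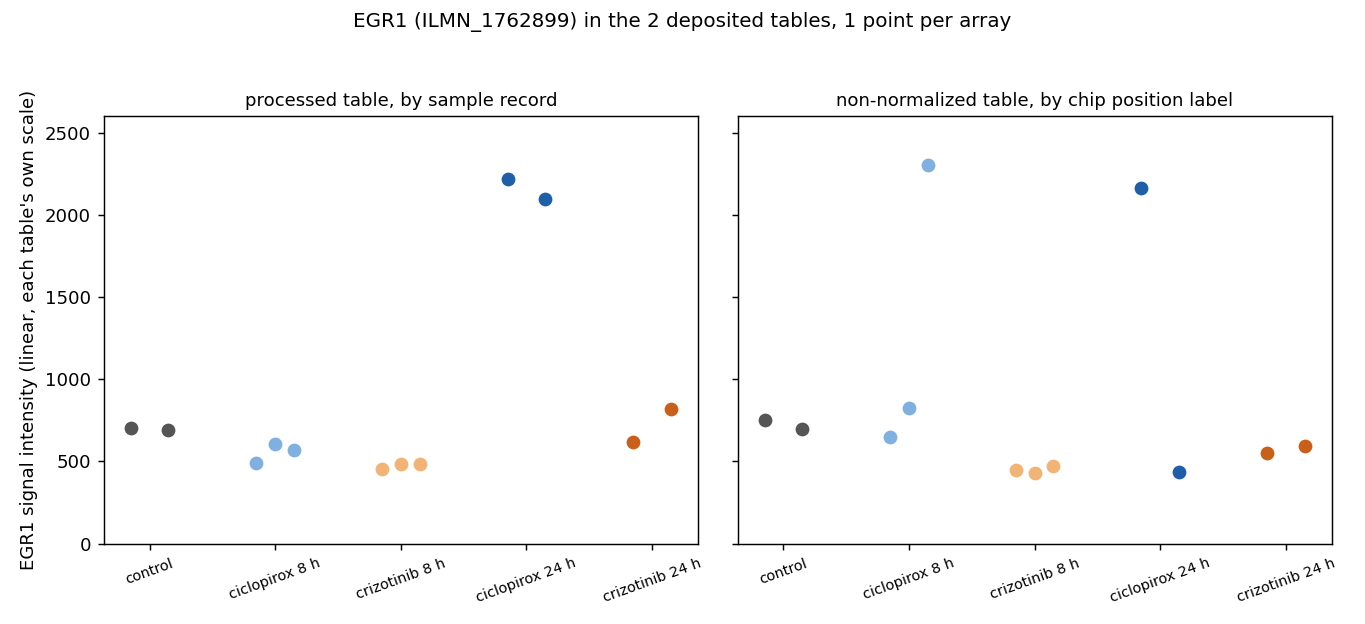
EGR1 signal intensity (linear, each table on its own scale) on each array, by group, in the processed table (left) and in the non-normalized table by chip position label (right). On the left the 2 high arrays are both ciclopirox 24 h (2219 and 2095), and on the right they are ciclopirox 8 h replicate 3 (2301) and ciclopirox 24 h replicate 1 (2166).

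All 12 arrays shared 1 chip, and between 15561 and 17106 probes per array had a detection p below 0.01. The 9 member probes had a detection p below 0.01 on all 12 arrays, so none is marked as undetected; the highest was 0.00779 for MYC and 0.0013 for FOS. Of the melanocyte markers, SOX10 was detected on all 12 arrays (intensity 2030 to 3143), while 7 of 9 probes of the list, including those of PMEL and 2 of 3 for MITF, were detected on none. The summed melanocyte list was 2932 to 3215 in control, 2292 to 2475 (ciclopirox) and 2198 to 2429 (crizotinib) at 8 h, and 2997 to 3323 and 3265 to 3279 at 24 h; its part in the results was not tested. None of the fibroblast, keratinocyte, endothelial or leukocyte probes was detected on all 12 arrays, and 19 of these 22 were detected on none.

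Promoter sequences of 5 members are shown: EGR1, FOS, FOSB and DUSP1, which were called higher at 24 h of ciclopirox, and JUN, which was not called there. DUSP6 ILMN_1677466 and MYC were also called, and their windows are not shown. Each is the 250 bases before the gene's start (RefSeq, GRCh38.p14, strand of the gene). Capitals mark CArG boxes, TGACG, the core of the CRE bound by CREB and ATF factors, and TGANTCA, a pattern for the AP-1 site. Both strands were searched, overlaps included. EGR1 lies at chr5:138465229-138465478, plus strand, FOS at chr14:75278578-75278827, plus strand, FOSB at chr19:45467746-45467995, plus strand, JUN at chr1:58784048-58784297, minus strand and DUSP1 at chr5:172771196-172771445, minus strand.
EGR1: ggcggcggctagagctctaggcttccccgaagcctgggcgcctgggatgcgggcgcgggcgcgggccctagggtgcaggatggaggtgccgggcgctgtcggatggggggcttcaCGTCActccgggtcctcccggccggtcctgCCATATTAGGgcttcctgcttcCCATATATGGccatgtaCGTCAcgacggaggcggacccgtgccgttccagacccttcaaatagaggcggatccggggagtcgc
FOS: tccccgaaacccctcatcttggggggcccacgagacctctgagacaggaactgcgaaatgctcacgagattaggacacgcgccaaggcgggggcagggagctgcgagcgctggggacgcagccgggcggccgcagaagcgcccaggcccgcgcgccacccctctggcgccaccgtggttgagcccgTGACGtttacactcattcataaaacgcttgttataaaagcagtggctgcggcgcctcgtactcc
FOSB: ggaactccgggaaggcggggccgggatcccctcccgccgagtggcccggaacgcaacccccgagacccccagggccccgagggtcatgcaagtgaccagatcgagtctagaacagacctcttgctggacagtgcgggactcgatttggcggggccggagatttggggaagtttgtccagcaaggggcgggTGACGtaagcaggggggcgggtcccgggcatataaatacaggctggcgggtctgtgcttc
JUN: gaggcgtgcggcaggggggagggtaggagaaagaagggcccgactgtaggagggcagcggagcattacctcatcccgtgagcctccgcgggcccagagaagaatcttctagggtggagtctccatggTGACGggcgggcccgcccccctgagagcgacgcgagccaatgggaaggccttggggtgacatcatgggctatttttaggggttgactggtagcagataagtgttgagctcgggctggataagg
DUSP1: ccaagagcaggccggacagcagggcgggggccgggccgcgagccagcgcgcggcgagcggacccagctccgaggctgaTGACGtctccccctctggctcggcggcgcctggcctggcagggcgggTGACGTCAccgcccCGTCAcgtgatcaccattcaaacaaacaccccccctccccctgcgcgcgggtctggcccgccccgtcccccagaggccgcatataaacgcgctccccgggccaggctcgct
The EGR1 window held 2 CArG boxes, starting 105 and 83 bases upstream, a motif present in 1.16% of 35116 promoters of this length. The windows of FOS, FOSB, JUN, DUSP1 and DUSP6 held none. Bases more than 250 upstream were not searched, so this does not mean that FOS lacks such a box. TGACG, present in 21.2% of promoters, occurred in all 5 windows shown and not in that of DUSP6. DUSP1 held the full TGACGTCA, a palindrome present in 1.65% of promoters, 125 bases upstream. TGANTCA, present in 6.57%, was in none of the 6 windows searched. Other forms were not searched, so a window without a match may still hold an AP-1 site. The DUSP6 gene, whose window is not shown, lies at chr12:89347235-89352501 and IER3 at chr6:30743199-30744547. These matches describe letters only; a match is not a bound site.

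**Figure D2:**
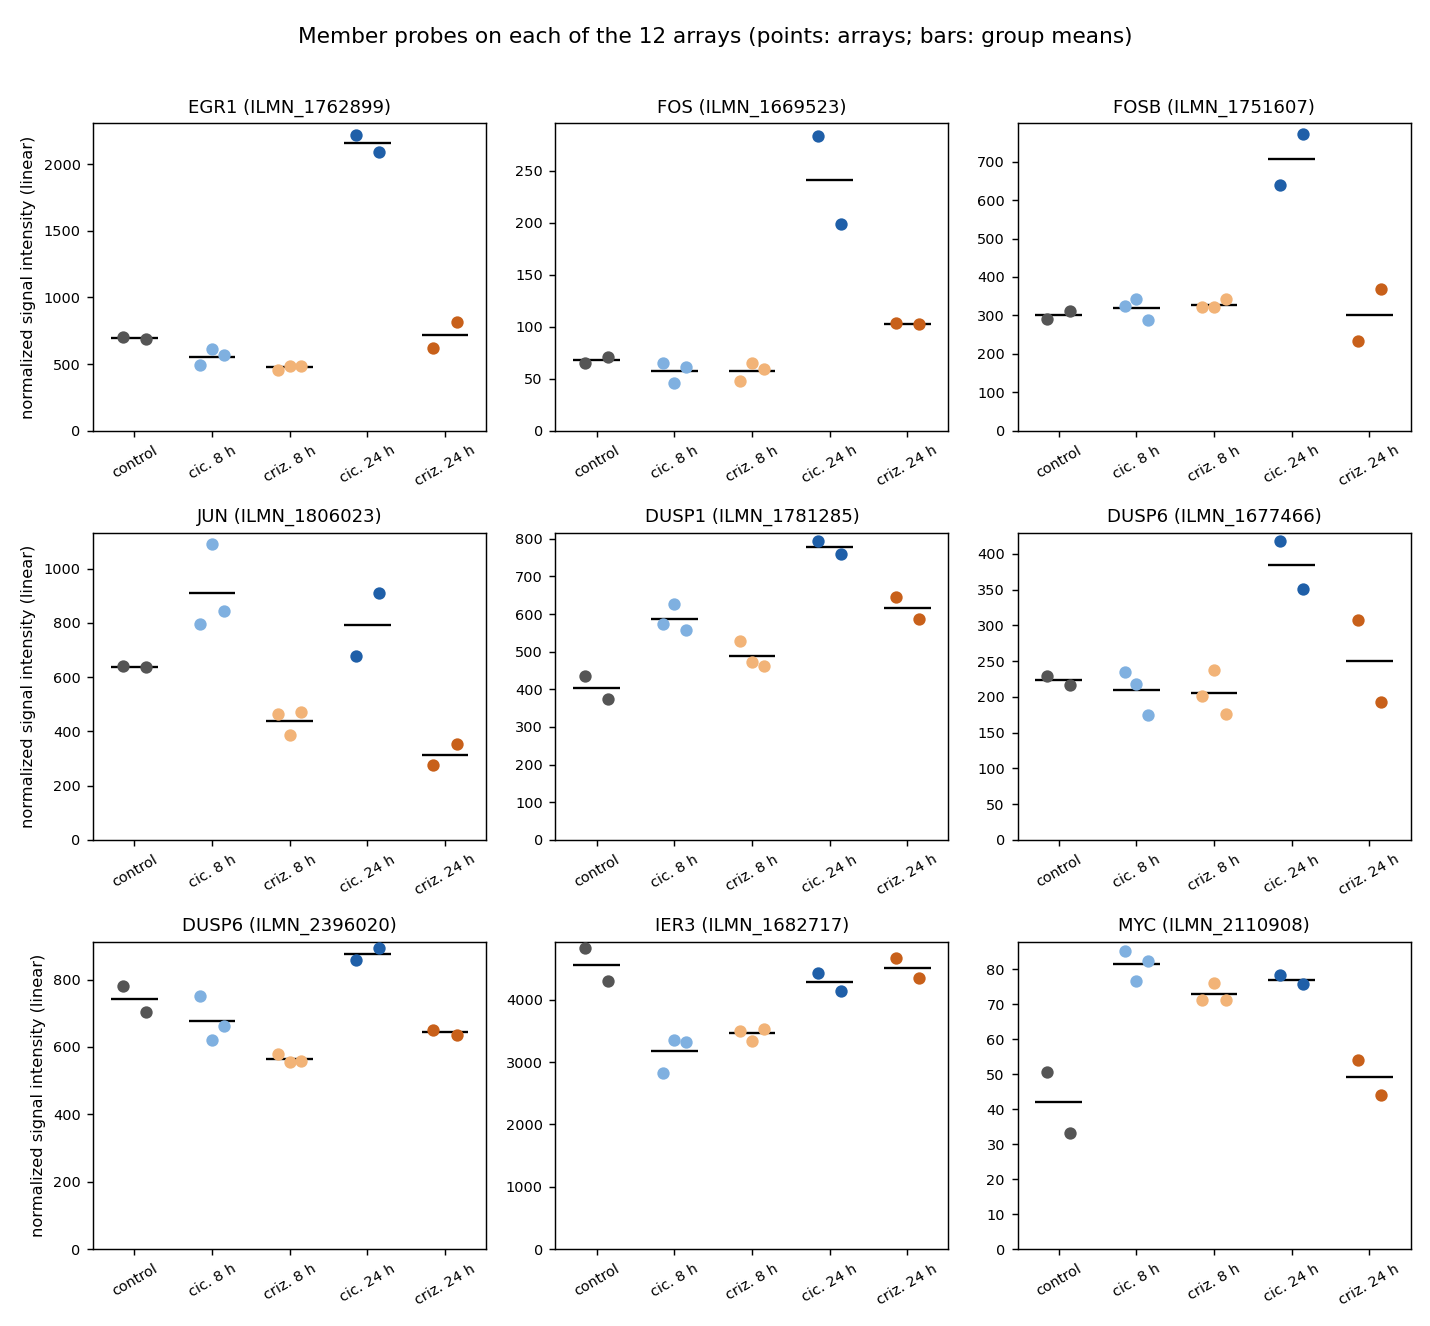
Normalized signal intensity (linear) of the 9 member probes on the 12 arrays, by group (cic., ciclopirox; criz., crizotinib); points are arrays and bars group means. EGR1 was at 2219 and 2095 at 24 h of ciclopirox and at 456 to 819 on the other 10 arrays.

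The comparison with most of the 9 member probes called against control was ciclopirox at 24 h. Of the 9 probes, 6 were higher at a limma adjusted p below 0.05 (EGR1, FOS, FOSB, DUSP1, MYC and DUSP6 ILMN_1677466). Of all 16216 probes, 6.57% were higher. The members had been chosen with earlier results of these data known, so this excess is a description and not a test. No member was lower by limma, also at an unadjusted p below 0.05, against 7.04% of all probes lower. The median log2 difference of the 9 was 0.91, beside -0.03 over all probes tested. By chip position label the 6 differences ran from 0.21 to 0.72, with adjusted p from 0.381 to 0.863. In the processed table at 8 h, 3 members were higher and 2 lower than control with ciclopirox at an unadjusted p below 0.05. With crizotinib at 8 h, 2 were higher and 4 lower. The share of all probes at that unadjusted p was not counted, so these counts have no background beside them.

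EGR1 (ILMN_1762899), a zinc finger transcription factor that is among the first genes to respond to growth factors, read 701 and 689 in control and 2219 and 2095 at 24 h of ciclopirox. It read 491, 609 and 567 at 8 h of ciclopirox, 456, 482 and 485 at 8 h of crizotinib, and 617 and 819 at 24 h of crizotinib. Both ciclopirox 24 h arrays thus lay above all others, and control lay within the range of crizotinib 24 h. The rise over control was 1.63 on the log2 scale (SE 0.14, 3.10-fold, limma adjusted p = 0.000107), and the rise from 8 h to 24 h of ciclopirox was 1.96 (SE 0.13, adjusted p = 1.85e-05). By chip position label these values were 0.52 (adjusted p = 0.827) and -0.05 (adjusted p = 0.981). Ordered by mean intensity the groups ran crizotinib 8 h (474 ± 16 SD, n = 3), ciclopirox 8 h (556 ± 60, n = 3), control (695 ± 8.8, n = 2), crizotinib 24 h (718 ± 143, n = 2) and ciclopirox 24 h (2157 ± 88, n = 2). Among neighbours in this order, only crizotinib 24 h and ciclopirox 24 h differed past the threshold, with ciclopirox 1.60 higher (limma adjusted p = 5.16e-05). The drugs at 8 h differed by 0.22 (adjusted p = 0.358), and ciclopirox 8 h and control by -0.33 (adjusted p = 0.327). Control and crizotinib 24 h differed by 0.03 (95% interval -0.29 to 0.35). Crizotinib 8 h and control, which are not neighbours, differed by -0.55 (SE 0.13, limma adjusted p = 0.0762), which did not pass either. All 3 crizotinib 8 h arrays lay below both controls.

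FOS (ILMN_1669523), the AP-1 subunit that pairs with JUN proteins, read 65.3 and 70.7 in control, 64.6, 46.0 and 61.6 at 8 h of ciclopirox, and 48.1, 64.6 and 58.8 at 8 h of crizotinib. At 24 h it read 284 and 199 with ciclopirox and 104 and 102 with crizotinib. The order was therefore both 8 h groups and control, then crizotinib 24 h, then ciclopirox 24 h, with no overlap between the last 2 groups and the rest. The difference from control at 24 h of ciclopirox was 1.80 (SE 0.21, 3.49-fold, limma adjusted p = 0.000477), while at 24 h of crizotinib it was 0.60 (SE 0.21) and did not pass (adjusted p = 0.0689).

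FOSB (ILMN_1751607), a related AP-1 subunit, read 290 and 310.3 in control and 639 and 773 at 24 h of ciclopirox. All other treated arrays lay between 234 and 369, a range that holds the controls. The rise over control was 1.23 (SE 0.19, 2.34-fold, limma adjusted p = 0.00228). Crizotinib 24 h spanned that whole range with its 2 arrays (234 and 369), and its difference from control was -0.03 (95% interval -0.45 to 0.38).

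JUN (ILMN_1806023), the AP-1 partner of FOS, took another course and separated the drugs. It read 641 and 637 in control, 797, 1092 and 845 at 8 h of ciclopirox, and 677 and 909 at 24 h. With crizotinib it read 462, 385 and 471 at 8 h and 276 and 353 at 24 h. Every ciclopirox array lay above control and every crizotinib array below it. Against control, JUN fell by 1.03 at 24 h of crizotinib (SE 0.19, limma adjusted p = 0.00478), and the other 3 differences did not pass: 0.50 and 0.30 at 8 h and 24 h of ciclopirox (adjusted p = 0.264 and 0.34), and -0.54 at 8 h of crizotinib (adjusted p = 0.185). By chip position label the difference at 24 h of crizotinib was 0.61 (adjusted p = 0.971), the opposite direction.

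DUSP1 (ILMN_1781285), the nuclear phosphatase MKP-1 that acts on p38, JNK and ERK, read 435 and 374 in control and higher on all 10 treated arrays. It read 573, 626 and 557 at 8 h and 795 and 758 at 24 h of ciclopirox, and 529, 474 and 463 at 8 h and 646 and 586 at 24 h of crizotinib. It rose at 24 h with both drugs, by 0.94 with ciclopirox (SE 0.12, 1.93-fold, limma adjusted p = 0.000838) and by 0.61 with crizotinib (SE 0.12, 1.52-fold, adjusted p = 0.006). The crizotinib call was lost without control replicate 2 and when only the 2 groups were fitted. At 8 h the differences were 0.54 (adjusted p = 0.067) and 0.27 (adjusted p = 0.279).

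DUSP6, the cytoplasmic ERK phosphatase MKP-3 and a common readout of ERK output, had 2 probes, which were not alike in size of difference. ILMN_1677466 read 229 and 217 in control, 235, 218 and 175 at 8 h and 417 and 350.1 at 24 h of ciclopirox. With crizotinib it read 201, 238 and 177 at 8 h and 308 and 193 at 24 h. Only the ciclopirox 24 h arrays lay above all others, with a difference from control of 0.78 (SE 0.22, limma adjusted p = 0.0431). This call was lost in 9 of the 20 other settings on the same table, among them without either control array or either ciclopirox 24 h array. ILMN_2396020 read 782 and 703 in control, 750.4, 622 and 663 at 8 h and 859 and 895 at 24 h of ciclopirox. In the crizotinib groups it read 579, 555 and 559 at 8 h and 651 and 636 at 24 h. Its difference from control was 0.24 at 24 h of ciclopirox (adjusted p = 0.181) and -0.39 at 8 h of crizotinib (adjusted p = 0.1), and neither passed.

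MYC (ILMN_2110908), a growth-promoting transcription factor, was the member nearest the detection limit. It read 50.7 and 33.3 in control, 85.3, 76.6 and 82.3 at 8 h and 78.3 and 75.8 at 24 h of ciclopirox. Crizotinib gave 71.3, 76.0 and 71.3 at 8 h and 54.2 and 44.1 at 24 h. For this probe the 2 controls differed from each other by more than the arrays of any other group, and crizotinib 24 h overlapped them. MYC was the only member called at 8 h against control, for ciclopirox (0.98, SE 0.16, limma adjusted p = 0.0258) and crizotinib (0.83, SE 0.16, adjusted p = 0.0344). These counts of 1 of 9 stand beside 0.315% and 0.796% of all probes higher, and 0.241% and 0.648% lower. Without control replicate 2 neither call passed, they were lost in 9 and 11 of the 20 other settings, and over all settings on this table the differences ran from 0.68 to 1.29 and from 0.52 to 1.13. At 24 h MYC was 0.91 over control with ciclopirox (SE 0.17, adjusted p = 0.00759), a call lost when only these groups were fitted or 3 arrays were left out. Another MYC probe that is no member, ILMN_1680618, read 668 and 670.4 in control, and its differences from control with ciclopirox were 0.62 at 8 h (adjusted p = 0.0358) and 0.79 at 24 h (adjusted p = 0.00213). With crizotinib they were 0.63 at 8 h (adjusted p = 0.0217) and 0.19 at 24 h (adjusted p = 0.301).

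IER3 (ILMN_1682717), a stress-induced regulator of cell survival, was low on every 8 h array. It read 4829.5 and 4301 in control, 2831, 3359.7 and 3326 at 8 h and 4435 and 4147 at 24 h of ciclopirox. Crizotinib gave 3503, 3343 and 3537 at 8 h and 4664 and 4342 at 24 h. All 6 arrays at 8 h lay below all 6 others. Against control the 8 h differences did not pass (-0.53, limma adjusted p = 0.0642, and -0.40, adjusted p = 0.11), and at 24 h they were -0.09 (95% interval -0.35 to 0.17) and -0.02 (-0.28 to 0.24).

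**Figure D3:**
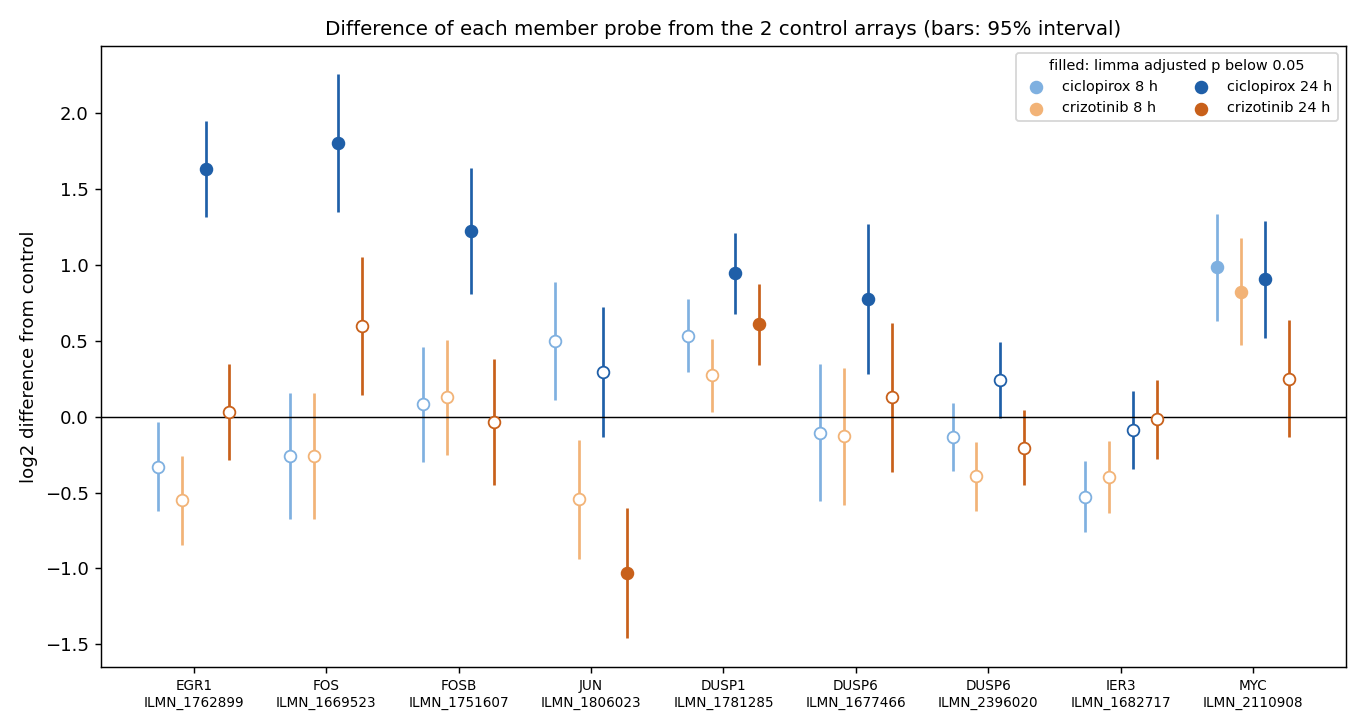
Log2 difference of each member probe from the 2 control arrays in the 4 treated groups, with 95% intervals; filled points passed limma's adjusted p of 0.05. The 3 largest are EGR1 (1.63), FOS (1.80) and FOSB (1.23) at 24 h of ciclopirox, and the lowest is JUN (-1.03) at 24 h of crizotinib.

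At 24 h of crizotinib, the counts over the 9 probes were 1 higher (DUSP1) and 1 lower (JUN), against 9.11% and 9.08% of all probes, with a median of 0.03 beside -0.02 over all probes. These shares are near the background.

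The drugs were next set against each other at matched times, a contrast of drug means in which the spread was still estimated over all 12 arrays, controls included. At 8 h 1 of 9 probes differed: JUN was 1.04 higher with ciclopirox (SE 0.16, 2.06-fold, limma adjusted p = 0.00539), against 1.39% of all probes higher and 2.41% lower. That call was lost when 3 arrays were left out (highest adjusted p 0.0558), and by chip position label the difference was -0.37 (adjusted p = 0.572). At 24 h 6 of 9 were higher with ciclopirox and no member lower, also at an unadjusted p below 0.05, against 6.46% and 7.44% of all probes. The differences were 1.60 for EGR1 (SE 0.14, adjusted p = 5.16e-05), 1.33 for JUN (SE 0.19, adjusted p = 0.00128), 1.26 for FOSB (SE 0.19, adjusted p = 0.00148) and 1.20 for FOS (SE 0.21, adjusted p = 0.00333). By chip position label that of JUN was -0.54 (adjusted p = 0.744). MYC (0.66, adjusted p = 0.0312) and DUSP6 ILMN_2396020 (0.45, adjusted p = 0.0246) also passed, but each lost its call in 7 or 8 of 20 settings. DUSP1 (0.34, adjusted p = 0.093), DUSP6 ILMN_1677466 (0.65, adjusted p = 0.0827) and IER3 (-0.07, adjusted p = 0.758) did not pass.

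Between 8 h and 24 h of ciclopirox, 7 of 9 probes rose, against 9.17% of all probes higher and 7% lower. Beside EGR1, the rises were 2.06 for FOS (SE 0.19, limma adjusted p = 0.000128) and 1.15 for FOSB (SE 0.17, adjusted p = 0.00189). Smaller rises were those of DUSP6 ILMN_1677466 (0.88, adjusted p = 0.0157), IER3 (0.44, adjusted p = 0.0194), DUSP1 (0.41, adjusted p = 0.0285) and DUSP6 ILMN_2396020 (0.38, adjusted p = 0.031). The calls for EGR1 and FOS passed in all 20 other settings on this table; that of FOSB was lost when 3 arrays were left out, and the 4 smaller ones were each lost without ciclopirox 24 h replicate 1 and in further settings. JUN (-0.20) and MYC (-0.08) did not pass.

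Between 8 h and 24 h of crizotinib, 3 of 9 rose and 1 fell, against 9.99% and 8.68% of all probes. FOS rose by 0.86 (SE 0.19, limma adjusted p = 0.00975), EGR1 by 0.58 (SE 0.13, adjusted p = 0.0114) and IER3 by 0.38 (SE 0.11, adjusted p = 0.0316), and MYC fell by 0.58 (SE 0.16, adjusted p = 0.0296). Each of these 4 calls was lost without at least 1 crizotinib array: that of FOS without 24 h replicate 1, those of EGR1 and MYC without 24 h replicate 2 (MYC also without any of the 3 at 8 h), and that of IER3 without any of the 5.

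Whether the change from 8 h to 24 h differed between the drugs was tested with an interaction contrast, added after the data were seen. It was larger with ciclopirox for 3 of 9 probes, against 2.75% of all probes larger and 2.45% smaller. The excess was 1.38 for EGR1 (SE 0.19, limma adjusted p = 0.00302), 1.31 for FOSB (SE 0.24, adjusted p = 0.0134) and 1.20 for FOS (SE 0.27, adjusted p = 0.0289). FOS lost its call in 9 settings, FOSB without ciclopirox 24 h replicate 2, and all 3 when 3 arrays were left out. For JUN the difference was 0.29 (95% interval -0.27 to 0.84), for DUSP1 0.07 (-0.27 to 0.42) and for IER3 0.06 (-0.27 to 0.39).

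The other genes of the pathway were counted in 5 lists, chosen with earlier results of these data known. Of 26 immediate early probes (21 genes, 6 of the probes members), 13 rose at 24 h of ciclopirox and none fell by limma (1 at an unadjusted p below 0.05), with a median of 0.56 beside -0.03 over all probes. Of the 20 that are not members, 9 rose and none fell, against 6.57% of all probes higher and 7.04% lower. The 9 include MYC ILMN_1680618 (0.79, limma adjusted p = 0.00213), a second probe of a member gene. ATF3, a stress-induced CREB-family factor, led the 9 at 2.66 (SE 0.12, limma adjusted p = 2.19e-06). It read 133 and 138 in control and 912 and 808 at 24 h of ciclopirox. Under crizotinib for 24 h, 3 of the 26 rose and 3 fell, with a median of 0.01. Without the members it was 3 and 2 of 20, close to the 9.11% and 9.08% of all probes. ATF3 rose there too (1.29, arrays 339 and 326), with KLF6 (0.83), a zinc finger factor, and ZFP36 (0.63), which destabilises mRNAs. CCN2, a matricellular protein, fell by 1.28, MAFF ILMN_1700413, a small MAF factor, by 1.06, and JUN as above. The other MAFF probe, ILMN_1680139, gave -0.41 (adjusted p = 0.175). MAFF ILMN_1700413 was dim, at 89.5 and 54.0 in control and 35.3 and 31.6 at 24 h of crizotinib. CCN2 read 3388 and 2875 in control and 1452 and 1140.2 at 24 h of crizotinib, and the groups did not overlap. ZFP36 rose at 24 h of ciclopirox as well (0.69, limma adjusted p = 0.00188), and KLF6 did not pass there (-0.03, adjusted p = 0.897).

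At 8 h the same list held 2 higher and 1 lower of 26 with ciclopirox, both higher ones being MYC probes and the lower one PHLDA1 ILMN_3251550 (-0.60). Without the members it was 1 and 1 of 20, against 0.315% and 0.241% of all probes, and the 1 higher was MYC ILMN_1680618. With crizotinib 4 rose, led by both MYC probes and KLF6 (0.77), and 2 fell, MAFF ILMN_1700413 (-1.25) and PHLDA1 ILMN_3251550 (-0.54). Without the members it was 3 and 2 of 20, against 0.796% and 0.648% of all probes, and the 3 include MYC ILMN_1680618. The second probes of MAFF and PHLDA1 did not pass. MAFF ILMN_1680139 gave 0.012 with crizotinib (adjusted p = 0.984). PHLDA1 ILMN_1687978 gave -0.12 with ciclopirox (adjusted p = 0.719) and -0.31 with crizotinib (adjusted p = 0.253). At an unadjusted p below 0.05 the list held 7 higher and 5 lower with ciclopirox, and 4 higher and 10 lower with crizotinib. The share of all probes at that unadjusted p was not counted.

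Of 18 MAPK feedback probes (15 genes, 3 members), 6 rose at 24 h of ciclopirox and none fell by limma, also at an unadjusted p below 0.05, with a median of 0.32. Of the 15 that are not members, 4 rose, against 6.57% of all probes higher and 7.04% lower. DUSP5, a nuclear ERK phosphatase, rose by 1.20 (SE 0.12, limma adjusted p = 0.000215) and ERRFI1, an inhibitor of the EGF receptor, by 1.14 (SE 0.12, adjusted p = 0.000351). DUSP5 read 732 and 631 in control and 1649.6 and 1471 at 24 h of ciclopirox. Under crizotinib for 24 h, 6 rose and 1 fell, with a median of 0.17. Without the members it was 5 and 1 of 15, against 9.11% and 9.08% of all probes, so the lower count is near the background. The probes that led there were DUSP10 (1.55, SE 0.21, adjusted p = 0.000884), a phosphatase of p38 and JNK, DUSP4 (1.24, SE 0.14, adjusted p = 0.000297), a nuclear MAPK phosphatase, and SPRY1 ILMN_2329914 (0.71, SE 0.11, adjusted p = 0.00157), a Sprouty inhibitor of receptor kinase signalling. The second SPRY1 probe, ILMN_1691860, gave 0.49 (adjusted p = 0.148). ERRFI1 fell by 0.41 (SE 0.12, adjusted p = 0.0421). DUSP4 also rose at 24 h of ciclopirox, by 0.84 (adjusted p = 0.00418), and DUSP5 at 24 h of crizotinib, by 0.61 (adjusted p = 0.00632). DUSP10 read 41.3 and 44.7 in control and 139 and 114 at 24 h of crizotinib. Between the drugs at 24 h, ERRFI1 was 1.55 and DUSP5 0.59 higher with ciclopirox, and DUSP10 was 1.02 and SPRY1 ILMN_2329914 0.43 lower, all past the threshold. At 8 h 1 of 18 rose with each drug, neither a member: SPRY1 ILMN_2329914 (0.93) with ciclopirox, against 0.315% of all probes, and DUSP4 (0.66) with crizotinib, against 0.796%. SPRY1 ILMN_1691860 gave 0.85 with ciclopirox (adjusted p = 0.0954).

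**Figure D4:**
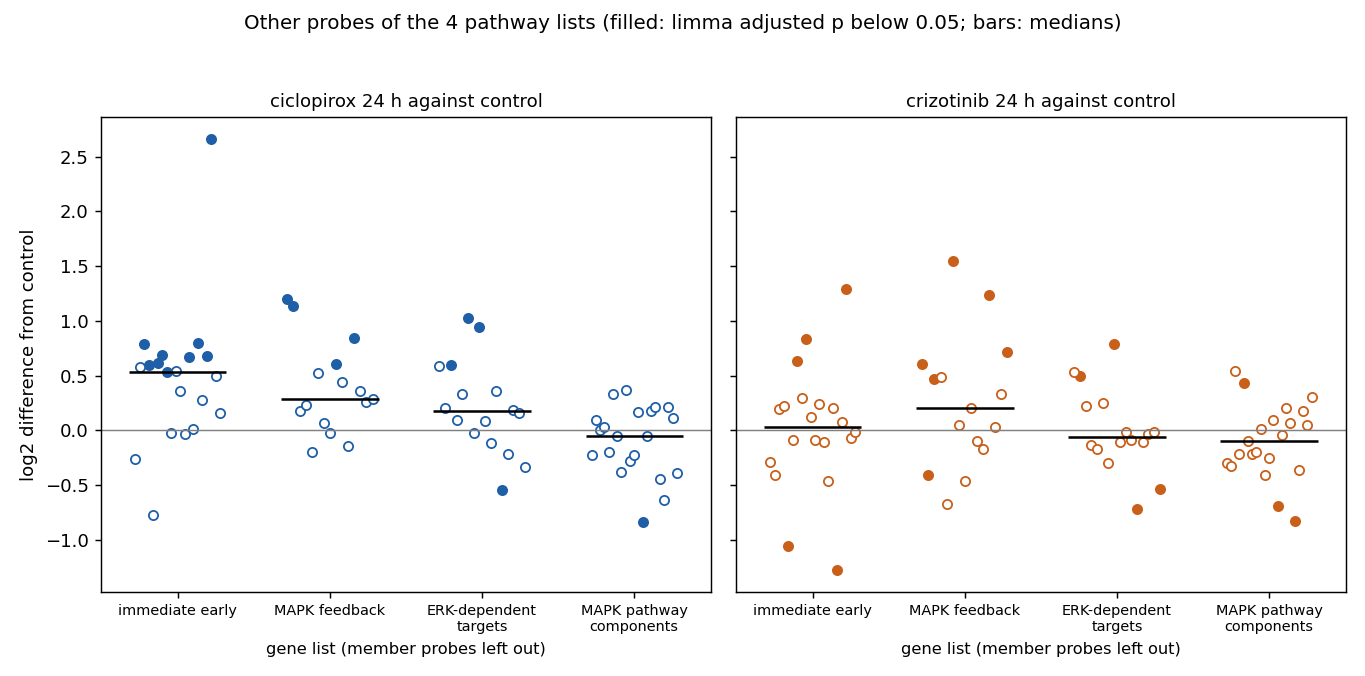
Log2 difference from control at 24 h of ciclopirox (left) and crizotinib (right) for the tested probes of 4 lists, member probes left out; filled points passed limma's adjusted p of 0.05 and bars are medians. ATF3 is the highest point on the left (2.66) and DUSP10 on the right (1.55).

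Of 16 probes for ERK-dependent transcription targets (11 genes), 3 rose and 1 fell at 24 h of ciclopirox, against 6.57% and 7.04% of all probes, with EPHA2, an ephrin receptor, at 1.03, LIF, a cytokine, at 0.94, PHLDA1 ILMN_1687978 at 0.59 and POLR3G ILMN_2070349, an RNA polymerase III subunit, at -0.55. The second probes did not pass, with PHLDA1 ILMN_3251550 at 0.16 (adjusted p = 0.372) and POLR3G ILMN_3251691 at -0.34 (adjusted p = 0.0619). PHLDA1 and FOSL1 are in the immediate early list too, so the rise of PHLDA1 ILMN_1687978 is counted in both lists. At 24 h of crizotinib 2 rose, LIF (0.78) and EPHA4 (0.49), and 2 fell, both probes of POLR3G (-0.72 and -0.54), against 9.11% and 9.08% of all probes. These shares are near the background. LIF was dim, at 54.4 and 34.4 in control, 74.1 and 93.0 at 24 h of ciclopirox and 79.2 and 70.0 at 24 h of crizotinib. Of 21 probes for pathway components (14 genes), 1 fell at 24 h of ciclopirox, ELK4 ILMN_1771805 (-0.83), a ternary complex factor, and none rose by limma, no more than the 7.04% and 6.57% of all probes. By limma at an unadjusted p below 0.05, 4 were lower and 2 higher. At 24 h of crizotinib MAPK3 ILMN_1667260, which encodes ERK1, rose by 0.43, and MAPK8, which encodes JNK1 (-0.83), and ELK4 ILMN_1771805 (-0.69) fell, counts near the 9.11% and 9.08% of all probes. MAPK8 was dim, at 66.1 and 60.6 in control and 31.4 and 40.2 at 24 h of crizotinib. The second MAPK3 probe, ILMN_2402341, gave 0.31 (adjusted p = 0.226), and the other ELK4 probes, ILMN_1899842 and ILMN_2273103, gave -0.36 and 0.18 (adjusted p = 0.368 and 0.673) there and -0.63 and 0.21 with ciclopirox (adjusted p = 0.125 and 0.615). Of the receptors that crizotinib inhibits, MET rose with both drugs at 24 h, by 0.50 (SE 0.10, limma adjusted p = 0.0091) with ciclopirox and by 0.33 (SE 0.10, adjusted p = 0.0441) with crizotinib, and ALK did not pass (0.25 and 0.24).

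Across the 12 arrays the member probes fell into loose sets, given as a description since arrays share groups. Pearson's r of log2 values was 0.927 between EGR1 and FOS, 0.878 between EGR1 and FOSB, and 0.762 between FOS and FOSB, whereas JUN and FOS gave 0.003. The 2 DUSP6 probes gave 0.698. MYC and IER3 gave -0.652. The probes most like EGR1 over the 12 arrays were the unnamed ILMN_2089977 (0.966), SH3PXD2A (0.959) and SPRR2D (0.956). Those most like DUSP6 ILMN_1677466 were TSPAN5 (0.956), ATP2C1 (0.956) and ALDOA (0.95). MYC was most like SLC35F2 (0.914), the unnamed ILMN_1780036 (0.913) and KIF3B (0.895).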

How the data were processed

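RNA of 12 WM35 samples was amplified, biotin-labelled and hybridised to Illumina arrays, per the labels' protocols; the submitters' processing notes name GenomeStudio. The authors deposited a processed table of linear normalized signal intensity, whose normalization and background correction are not given in the sources used here, and a non-normalized table of intensity with a detection p-value per probe and array. No column was unused. Probes were tested (16216) where the detection p was below 0.01 on at least 2 of 12 arrays and the processed table held them; genes come from the platform annotation (13132 probes with 1 gene, 1 with several, 3083 with none). Processed values were log2-transformed with no pseudocount and fitted with limma 3.58.1 in R 4.3.3, with 1 mean per group over all 12 arrays (7 residual degrees of freedom), and p-values were adjusted by Benjamini-Hochberg over all tested probes, with a threshold of 0.05. The number of arrays limits the precision. The scripts were tested on simulated data.

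The design fixed at the outset named the non-normalized table, background-corrected and quantile normalized with limma's neqc, as the main source and the processed table as an alternative. These were exchanged after the tables were found to disagree on which array is which sample and the members' values had been seen in both. The interaction contrast, median centring and quantile normalization of the processed values were also added after seeing the data. Members and lists were chosen with earlier results of these data known. All members were named. List probes past the threshold were chosen by size, at most 3 each way per list and comparison, and the text names only part of them. The lists of ERK-dependent targets and pathway components are counted at 24 h against control only. A probe that is not named may therefore have passed, as CCND1 did at 8 h of ciclopirox (0.57, limma adjusted p = 0.0319).

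Replicate numbers are shared between groups, but the labels state no pairing, and same-numbered arrays' deviations from their group means correlated at -0.25 to 0.359, so the numbers were not taken to pair arrays. The highest correlation between any 2 arrays was 0.9946, and no 2 were identical.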

Additional observations from a re-analysis of the deposited data

Results flagged for a closer look

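The change from 8 h to 24 h within a drug differed by limma for 7 member probes with ciclopirox: EGR1 1.96, FOS 2.06, FOSB 1.15, DUSP1 0.41, DUSP6 ILMN_1677466 0.88, DUSP6 ILMN_2396020 0.38 and IER3 0.44 on the log2 scale. With crizotinib it differed for 4: EGR1 0.58, FOS 0.86, IER3 0.38 and MYC -0.58. These were singled out because the time points differ by the test of that difference itself; the interval between the times also holds time in culture, which cannot be told apart from time on drug, since no control is labelled with a time.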

How the results depend on the processing

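Under the chip position labels of the non-normalized table (neqc), the setting first planned, limma called 0 member probes in each of the 9 comparisons, and over all probes 519 at 8 h of ciclopirox and 522 between the drugs at 8 h, 1 at 24 h of ciclopirox and 0 elsewhere, beside 90, 616 and 2208 with the processed table. The direction turned there for 26 of 81 member results: at 8 h of ciclopirox against control EGR1 (0.57), FOS (0.82) and JUN (-0.60), at 24 h DUSP6 ILMN_2396020 (-0.036), at 24 h of crizotinib FOS (-0.34) and JUN (0.61), between the drugs at 8 h JUN (-0.37), IER3 (0.44) and MYC (-0.34), at 24 h JUN (-0.54) and MYC (-0.19), from 8 h to 24 h of ciclopirox EGR1 (-0.048), FOS (-0.29), JUN (0.67), DUSP1 (-0.077), DUSP6 ILMN_1677466 (-0.17) and IER3 (-0.22), of crizotinib FOS (-0.29), JUN (0.85), DUSP6 ILMN_1677466 (-0.13) and MYC (0.16), and for the interaction EGR1 (-0.34), FOS (-0.0080), JUN (-0.17), DUSP6 ILMN_1677466 (-0.046) and DUSP6 ILMN_2396020 (-0.074). The columns labelled ciclopirox 8 h by chip position matched crizotinib 24 h replicates 1 and 2 and ciclopirox 24 h replicate 1 of the processed table best. Those labelled ciclopirox 24 h and crizotinib 8 h mixed processed titles too, and those labelled crizotinib 24 h matched ciclopirox 8 h. The 2 sets of values thus do not compare the same groups of arrays. Which labels are right was not tested.

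On the processed table, all 31 called member results kept their direction in the 20 other settings (the interaction had no fit of only the groups compared), and 11 stayed past the threshold in all 20: EGR1, FOS, FOSB and DUSP1 at 24 h of ciclopirox and JUN at 24 h of crizotinib against control, EGR1, FOS, FOSB and JUN between the drugs at 24 h, and EGR1 and FOS from 8 h to 24 h of ciclopirox. A change of sign was counted where either value was called or the first was at least 1 SE from 0, a rule set after seeing the data, which left out 21 sign changes. Direction turned without control replicate 2 for MYC at 24 h of crizotinib (-0.052, range over left-out arrays -0.052 to 0.55), without ciclopirox 24 h replicate 1 for JUN from 8 h to 24 h (0.010, range -0.41 to 0.010), without crizotinib 24 h replicate 1 for DUSP6 ILMN_1677466 from 8 h to 24 h (-0.079, range -0.079 to 0.60), and with 3 arrays left out (ciclopirox 8 h replicate 3, ciclopirox 24 h replicate 2, crizotinib 8 h replicate 3) for the interaction of JUN (-0.027), none of them called.

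The count of called members moved from 1 at 8 h of ciclopirox to 2 with median centring or quantile normalization, 3 with array weights or only probes detected on all 12 arrays, and 0 with no filter, only the groups compared, the replicate block or 3 arrays left out. At 8 h of crizotinib it moved from 1 to 2 with array weights or probes detected on all 12 arrays, and to 0 with no filter, only the groups compared, the replicate block or 3 arrays left out. It moved between the drugs at 8 h from 1 to 0 with 3 arrays left out, from 8 h to 24 h of ciclopirox from 7 to 4 with no filter or only the groups compared and to 2 with 3 arrays left out, of crizotinib from 4 to 2 with no filter or array weights and to 1 with 3 arrays left out, and for the interaction from 3 to 0 with 3 arrays left out. Leaving out each array in turn gave 0 to 1 (ciclopirox 8 h), 5 to 6 (24 h), 0 to 2 (crizotinib 8 h), 1 to 3 (24 h), 1 (drugs at 8 h), 4 to 6 (24 h), 3 to 7 (ciclopirox 24 h against 8 h), 1 to 4 (crizotinib) and 2 to 3 (interaction). A group left with 1 array was assumed to vary like the others. At 24 h of ciclopirox against control the count moved from 6 to 5 with no filter or only the groups compared. It fell further with 3 arrays left out, a fit that kept 1 array of ciclopirox 24 h. Between the drugs at 24 h the count moved from 6 to 4 with no filter, only the groups compared or array weights. With 3 arrays left out it fell there too. With the replicate block the counts were 0, 6, 0 and 2 against control, 1 and 6 between the drugs, 5 and 3 over time and 2 for the interaction; the numbers do not pair arrays by label. Over all probes, the calls at 24 h of ciclopirox went from 2208 to 915 without control replicate 1, 922 without control replicate 2, 963 with 3 arrays left out, 999 with no filter and 875 with only the groups compared. At 24 h of crizotinib they went from 2950 to 1369 without control replicate 1, and at 8 h from 90 to 4 (ciclopirox) and from 234 to 34 (crizotinib) at the lowest. Median centring for neqc and the fit without background correction were not run, since they apply to the non-normalized table. The causes were not tested. Groups of 2 or 3 arrays and signals near the detection limit (MYC, FOS) limit what could be called. Some named list probes were dim as well, such as MAFF ILMN_1700413, MAPK8 and LIF.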
